A study of Mus musculus with 22 samples.

Results

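The insulin-like growth factor (IGF) axis was described here through 8 genes, the ligand gene Igf1, its receptor gene Igf1r and the binding protein genes Igfbp2, Igfbp3, Igfbp4, Igfbp5, Igfbp6 and Igfbp7. They were taken by gene symbol from a table of 30170 genes. The filter on low counts kept 14520 genes, and 8 of the 8 passed it. Igfbp2 and Igfbp6 passed with few reads, since Igfbp2 held 3 counts or fewer in 11 of 22 libraries and Igfbp6 in 14 of 22. The filter asked for 0.517 CPM (read counts scaled to library size, here without TMM) in 2 libraries, which Igfbp2 met only in 4 WT libraries of days 2 to 6 and Igfbp6 only in the 4 undifferentiated libraries. Each of these genes therefore entered the test through the group where it is high, and its calls are given as a description. Igfbp3 met the filter in 0 double mutant libraries, so its differences between the double mutant and the other genotypes are a description as well.

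IGF1 is a secreted growth factor that acts on the cell that makes it and on its neighbours, and it circulates as a hormone made mainly in the liver. It binds the IGF1 receptor, a tyrosine kinase closely related to the insulin receptor, which signals through the IRS and SHC adaptor proteins and promotes growth, survival and differentiation. The IGF-binding proteins are secreted partners that hold IGFs with high affinity, keep them from the receptor or deliver them to it, and are cut by proteases that set the ligand free. In preadipocytes, IGF1 and insulin are the classic hormonal drivers of adipocyte differentiation, and insulin at a high dose also acts through the IGF1 receptor.

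RNA was sequenced from C3H 10T1/2 cells, a mouse mesenchymal stem cell line that can be turned into adipocytes in culture, made to express DNMT3A WT, the W330R mutant or the W330R-R181E double mutant. DNMT3A is a DNA methyltransferase, W330R lies in its PWWP domain, which reads histone H3 methylation, and the series asks how DNMT3A1 mutants that add methylation affect differentiation. WT and W330R cells were sampled undifferentiated and at days 2, 4 and 6, and double mutant cells at days 2, 4 and 6, with 2 libraries in each of the 11 conditions. Cells of all 3 genotypes received the same adipocyte medium (isobutylmethylxanthine, dexamethasone, insulin and troglitazone) for 2 days and then insulin alone, so that every library from day 2 on comes from cells kept in insulin. The labels give neither parental cells, nor how many lines or clones stand behind a genotype, nor whether the 2 libraries of a condition are separate cultures. The p-values therefore measure only the spread between these libraries, which may be technical.

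Between 8859501 and 47453908 reads were counted per library, so that a floor of 3 counts lies at 0.0583 to 0.347 CPM (the read count scaled to library size with TMM normalization). The 2 undifferentiated libraries of a genotype were far closer to each other (chi-square per degree of freedom 3.32 in WT and 3 in W330R) than the 2 of a later condition (27.9 to 96.8). Undifferentiated libraries are named in another way in the table than those taken from day 2 on, so that a batch and the step from undifferentiated cells to day 2 cannot be told apart. Dnmt3a was at 316 to 347 CPM in undifferentiated cells and at 68.5 to 322 CPM later, and was lower in replicate 1 than in replicate 2 in 9 of the 9 later conditions. The labels do not give whether reads of the introduced gene are counted together with those of the cell's own, so the count does not check the mutations. The 8 adipocyte markers summed to 51.5 to 59.6 CPM before induction and to 1550 to 9790 CPM after it, whereas the 6 markers of mesenchymal fibroblasts summed to 14700 to 18600 CPM before and 1080 to 11300 CPM after.

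Levels between genes were compared per kilobase of merged exons, as the mean over the 11 conditions. Igfbp7, a secreted protein of the family that binds IGFs weakly, was at 87.0 CPM per kilobase. Igf1 came next at 13.9, then Igfbp4 at 8.64, Igf1r at 5.13 and Igfbp5 at 0.929 CPM per kilobase. The other 3 were measured from few counts, with Igfbp3 at 0.307, Igfbp6 at 0.213 and Igfbp2 at 0.153 CPM per kilobase. The level per kilobase in undifferentiated WT cells was 13 for the receptor gene and 7.97 for the ligand gene, against 3.23 and 12.6 at day 6.

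**Figure D1:**
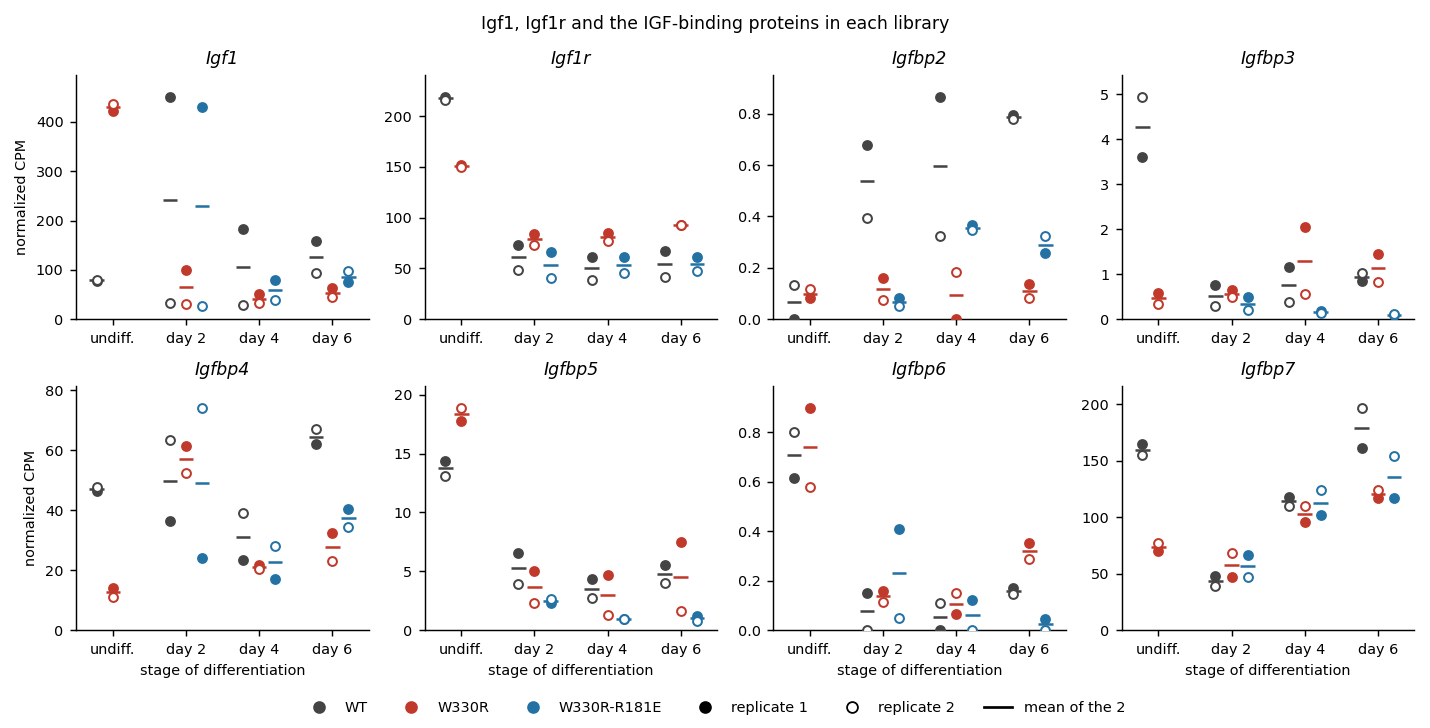
Normalized CPM (linear axis from 0, its own range for each gene) of the 8 genes in each of the 22 libraries by stage, coloured by DNMT3A genotype, with filled circles for replicate 1, open circles for replicate 2 and a bar for their mean. Igf1 at day 2 ranges from 27.4 to 451 CPM with wide gaps between replicates, Igf1r lies at 73.4 CPM or above in every W330R library, and Igfbp7 climbs from day 2 to day 6 in every genotype.

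Because the genotypes differ in a DNA methyltransferase, the CG content of the 8 start regions was counted in the 250 bases upstream of each RefSeq start site (GRCm38.p6, the build of the sequence table, whereas the submitters' processing notes name GRCm39). DNA methylation itself was not analysed here. The motif was CG, which reads the same on both strands, and the median over 32851 such windows of the mouse genome was 6. Igf1r held 42 CG in its window, a number reached by 0.865% of windows, Igfbp3 held 32 (4.58% of windows), Igfbp7 26 (9.59%) and Igfbp4 22 (14.8%). Igfbp2 held 14 and 11 at its 2 start sites, Igfbp5 10, Igfbp6 7 and Igf1 5, the only one of the 8 below the median. The bases after the start site were found in a GENCODE transcript of the gene for Igf1, Igfbp3, Igfbp4, Igfbp5 and start site 2 of Igfbp2. They were not found for Igf1r, Igfbp6, Igfbp7 and start site 1 of Igfbp2, so these start sites lack that check. The windows of Igfbp3, Igfbp4 and Igfbp7 are shown because these 3 genes were called lower in undifferentiated W330R cells, as described with their values further on. Capitals mark each CG. They lie at chr11:7213924-7214173 (Igfbp3, minus strand), chr11:99040994-99041243 (Igfbp4, plus strand) and chr5:77408046-77408295 (Igfbp7, minus strand), and are printed 5′ to 3′ on the gene's strand.
Igfbp3: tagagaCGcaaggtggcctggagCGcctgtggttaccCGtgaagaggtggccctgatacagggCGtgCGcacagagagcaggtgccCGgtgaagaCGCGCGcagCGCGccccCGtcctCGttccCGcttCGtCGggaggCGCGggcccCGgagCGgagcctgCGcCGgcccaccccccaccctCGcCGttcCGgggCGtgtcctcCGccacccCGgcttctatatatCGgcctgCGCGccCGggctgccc
Igfbp4: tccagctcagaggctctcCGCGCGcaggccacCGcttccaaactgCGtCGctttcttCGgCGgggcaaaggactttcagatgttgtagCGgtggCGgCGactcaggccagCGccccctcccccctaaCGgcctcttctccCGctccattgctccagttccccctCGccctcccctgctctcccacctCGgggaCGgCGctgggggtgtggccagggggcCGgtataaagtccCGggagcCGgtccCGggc
Igfbp7: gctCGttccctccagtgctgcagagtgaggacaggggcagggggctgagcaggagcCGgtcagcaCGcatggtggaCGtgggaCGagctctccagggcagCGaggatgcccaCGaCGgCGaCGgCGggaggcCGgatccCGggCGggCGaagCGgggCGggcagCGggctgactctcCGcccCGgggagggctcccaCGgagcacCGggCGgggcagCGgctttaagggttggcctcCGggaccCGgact

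Igf1, the ligand gene, had higher values in W330R than in WT cells before differentiation and lower means afterwards, when replicates differed too much to separate the genotypes. In undifferentiated cells it was at 77.8 and 80.1 CPM in WT and at 423 and 437 CPM in W330R, so that both W330R libraries lay 5.45-fold above WT by their means. In the model over all 22 libraries, which shares 1 estimate of the spread, the log2 fold change was 2.44 (SE 1.18) with an adjusted p of 0.424 (edgeR quasi-likelihood test, Benjamini-Hochberg over 14520 genes). Fitted on the 4 undifferentiated libraries alone, the same difference was 2.45 with an adjusted p of 6.59e-08, in a fit that called 4194 genes where the model over all libraries called 254. The undifferentiated pairs differed by at most 3.2%, which is far less than the later pairs that set the shared spread. From there to day 2 Igf1 moved by -2.73 in W330R (SE 1.19, adjusted p = 0.0721, and 0.0122 to 0.145 over 6 other settings, of which 4 called it) and by 1.61 in WT (SE 1.14, adjusted p = 0.255), and the difference of these steps was -4.34 (SE 1.65, adjusted p = 0.223). As in all bulk samples, fewer cells that make a transcript and less of it per cell cannot be told apart.

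From day 2 on, Igf1 differed by replicate number. In WT cells it was at 451 and 33.6 CPM in replicates 1 and 2 at day 2, at 183 and 28.5 CPM at day 4, and at 158 and 92.9 CPM at day 6. In W330R cells it was at 99.4 and 30.9, then 50.4 and 32, then 62.2 and 45.1 CPM. In double mutant cells it was at 431 and 27.4, then 78.5 and 39.1, then 74.8 and 97.0 CPM. Replicate 1 was the higher library in 8 of the 9 later conditions, by up to 15.7-fold, and in the order of the 11 conditions by mean, each neighbour overlapped the next in 10 of 10 pairs, W330R undifferentiated with WT day 2 included. No genotype difference in Igf1 passed the test at any day: W330R minus WT was -1.90 (SE 1.15, adjusted p = 0.417) at day 2, -1.36 (SE 1.14, adjusted p = 0.516) at day 4 and -1.22 (SE 1.13, adjusted p = 0.574) at day 6 on the log2 scale. Without replicate 1 of WT at day 2 the first of these became 0.95, and without replicate 1 of WT at day 4 the second became 0.56, so that 1 library sets the direction. Averaged over days 2 to 6, the difference was -1.49 (SE 0.66, adjusted p = 0.105).

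Chondrocyte markers also differed between replicates, in part in the same libraries. The 4 markers on the list (Col2a1, Acan, Col9a1 and Matn1) summed to 522 and 39.2 CPM in replicates 1 and 2 of WT at day 2, to 1300 and 239 at day 4 and to 2050 and 291 at day 6. In the double mutant they summed to 1850 and 55.4, 5310 and 938, and 5960 and 1470 CPM, and in W330R to 64.5 and 37.6, 297 and 355, and 423 and 425 CPM. Col2a1, the main cartilage collagen, made up most of each sum, and its replicate ratio ran from 0.878 to 33.3. In undifferentiated cells the sums were 800 and 780 CPM in WT and 513 and 500 CPM in W330R, the reverse of the order of Igf1, although Col9a1 alone was higher in W330R (27.4 and 23.4 against 4.31 and 3.83 CPM), with Acan at 0 in all 4 libraries and Matn1 at 0 in 3 of them. The higher library was the same for the sum and for Igf1 at each day in WT, at day 2 in W330R and at days 2 and 4 in the double mutant, but not at day 6 in the double mutant or at days 4 and 6 in W330R. Their part in the differences in Igf1 was not tested.

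**Figure D2:**
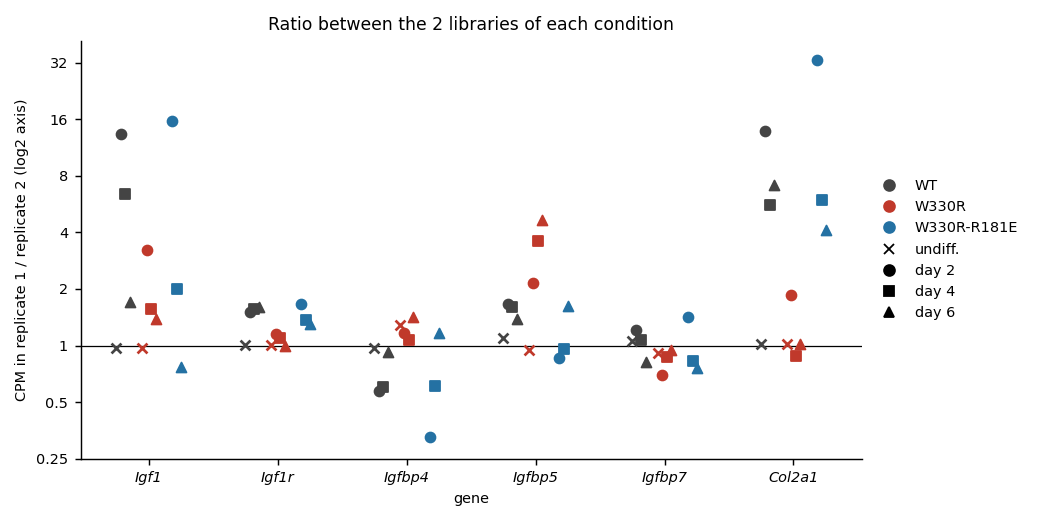
Ratio of CPM in replicate 1 to CPM in replicate 2 (log2 axis) for the 5 best measured members and for the cartilage collagen gene Col2a1 in the 11 conditions, coloured by genotype, with the marker shape for the stage. Igf1 and Col2a1 reach 15.7 and 33.3, whereas Igfbp7 stays between 0.695 and 1.42 and the undifferentiated pairs (crosses) lie near 1.

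Igf1r, the receptor gene, fell when differentiation was induced and then stayed higher in W330R than in the other genotypes. It was at 219 and 216 CPM in undifferentiated WT cells and at 152 and 150 CPM in undifferentiated W330R cells, where the W330R libraries lay below the WT libraries (log2 fold change -0.53, SE 0.285, adjusted p = 0.499, and 4.48e-05 in a fit of these 4 libraries alone). At day 2 it was at 72.9 and 48.6 CPM in WT, 84.2 and 73.4 in W330R and 66.5 and 40.1 in the double mutant. The step from undifferentiated cells to day 2 was -1.84 (SE 0.293, adjusted p = 0.00014) in WT and -0.94 (SE 0.287, adjusted p = 0.0151) in W330R on the log2 scale, and the difference between these 2 steps did not pass the test (0.91, SE 0.403, adjusted p = 0.32). The W330R step was no longer called without W330R replicate 1 or 2 of the undifferentiated libraries or replicate 2 of day 2 (adjusted p = 0.0595, 0.0526 and 0.0948). After day 2 the level moved little, and no later step was called in any genotype.

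At day 4 Igf1r was at 61.0 and 38.8 CPM in WT, 84.4 and 76.6 in W330R and 61.6 and 45.2 in the double mutant. At day 6 it was at 66.8 and 41.6 CPM in WT, 92.4 and 92.8 in W330R and 61.6 and 47.4 in the double mutant. Over days 2 to 6 the 6 W330R libraries (lowest 73.4, median 84.3, highest 92.8 CPM) therefore lay above the 6 WT libraries (38.8, 54.8 and 72.9) and above the 6 double mutant libraries (40.1, 54.5 and 66.5), although the lowest W330R and the highest WT library nearly touched, whereas WT and the double mutant overlapped. Averaged over days 2 to 6, a comparison added after the data were seen, W330R exceeded WT by 0.61 on the log2 scale (SE 0.165, adjusted p = 0.0127). This average was taken from the model over all 22 libraries only. It was not repeated under other settings, without single libraries or without those with high interferon genes. The double mutant lay below W330R by a log2 fold change of -0.64 (SE 0.165, adjusted p = 0.0166) and differed from WT by -0.03 (SE 0.166, adjusted p = 0.955). At single days none of these differences was called in the reported model, the largest being 0.77 (SE 0.286, adjusted p = 0.121) for W330R minus WT at day 6. With replicate number added to the model, W330R minus WT was called at days 4 and 6 (adjusted p = 0.0278 and 0.0148). The double mutant minus W330R was then called at day 6 (adjusted p = 0.0408). In that model these comparisons called 12.7%, 12.1% and 3.43% of all genes. With the undifferentiated libraries in the average, where the order is the other way round, W330R minus WT was 0.33 (SE 0.143, adjusted p = 0.114).

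Markers of other cell states were also compared by genotype over days 2 to 6. The 6 fibroblast markers, taken as a sum, overlapped between genotypes. They summed to 2170 to 11300 CPM in W330R, 1280 to 9390 in WT and 1080 to 7550 in the double mutant, with 0 or 1 of the 6 at 0. The 8 adipocyte markers summed to 1550 to 2450 CPM in W330R, below WT at 2860 to 9790 and overlapping the double mutant at 1940 to 4340, with none at 0. Their part in the Igf1r difference was not tested.

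Replicate 1 of W330R at days 2, 4 and 6 and of the double mutant at day 6 had high interferon response genes. The 8 genes of that list summed to 152 to 1240 CPM in these 4 libraries and to at most 53.8 CPM in the other 18. Without them the double mutant minus W330R in Igf1r was -0.66 with an adjusted p of 0.144. The 3 W330R libraries that remained held 73.4, 76.6 and 92.8 CPM, each above the highest library of WT and of the double mutant.

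**Figure D3:**
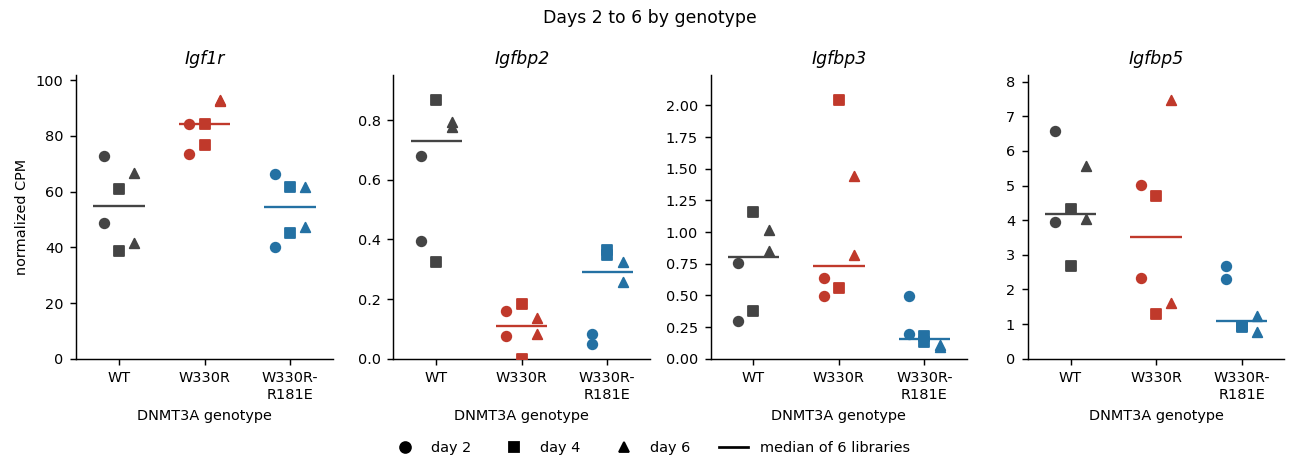
Normalized CPM (linear axis from 0) of Igf1r, Igfbp2, Igfbp3 and Igfbp5 in the 6 libraries of each genotype at days 2, 4 and 6, with the marker shape for the day and a bar for the median. W330R stands above both other genotypes in Igf1r (median 84.3 against 54.8 and 54.5 CPM) and below WT in Igfbp2, and the double mutant lies lowest in Igfbp3 and Igfbp5.

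Igfbp7, the most abundant of the binding protein genes, was lower in W330R cells before differentiation, fell at day 2 in WT and then rose from day 2 to day 6 in all 3 genotypes. It was at 165 and 155 CPM in undifferentiated WT cells and at 70.0 and 76.9 CPM in undifferentiated W330R cells, a 2.18-fold difference between the means with no overlap (log2 fold change -1.12, SE 0.207, adjusted p = 0.0141). The call was lost without any 1 of these 4 libraries (adjusted p = 0.0876 to 0.198), with fold changes of -1.19 to -1.06. At day 2 WT held 47.8 and 39.4 CPM, W330R 47.5 and 68.3 and the double mutant 66.2 and 46.7. WT thus fell 3.67-fold from undifferentiated cells (log2 -1.88, SE 0.211, adjusted p = 6.94e-06), whereas the W330R step of -0.34 was not called (SE 0.206, adjusted p = 0.185).

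The difference between these 2 steps was itself called, at 1.53 on the log2 scale (SE 0.292, adjusted p = 0.0173). It was lost without any 1 of the 4 undifferentiated libraries or without replicate 2 of either genotype at day 2 (1.24 to 1.77 over the 22 fits without 1 library, adjusted p up to 0.0903). Put the other way, W330R lay below WT in undifferentiated cells and did not at day 2 (log2 fold change 0.41, SE 0.206, adjusted p = 0.314). At day 4 Igfbp7 was at 118 and 110 CPM in WT, 95.6 and 110 in W330R and 102 and 124 in the double mutant. At day 6 it was at 161 and 197 CPM in WT, 117 and 124 in W330R and 117 and 154 in the double mutant. The rise from day 2 to day 6 was called in WT (log2 2.04, SE 0.212, adjusted p = 2.47e-05), W330R (1.06, SE 0.206, adjusted p = 0.0024) and the double mutant (1.26, SE 0.208, adjusted p = 0.00111), and the rise to day 4 was called in each as well (1.39, 0.83 and 1.00). The rise to day 6 was lost in W330R without the 4 libraries with high interferon genes (0.88, adjusted p = 0.103) and in the double mutant in a fit of its days 2 and 6 alone (1.27, adjusted p = 0.0954), as was the WT rise to day 4 in a fit of those conditions alone (1.4, adjusted p = 0.093). The rise to day 4 was lost in W330R without replicate 1 of day 2 or replicate 2 of day 4 (0.59 and 0.75) and in the double mutant without replicate 2 of day 2 or day 4 (0.77 and 0.86). That WT rose further than W330R was not shown, since the difference of -0.98 between W330R minus WT at day 6 and at day 2 did not pass (SE 0.29, adjusted p = 0.334). The medium changed to insulin alone after day 2, and its part in these rises was not tested. At day 6 both W330R libraries lay below both WT libraries, at 1.49-fold by the means (log2 -0.57, SE 0.204, adjusted p = 0.109). In the GENCODE annotation Igfbp7 overlaps Polr2b and an antisense RNA gene on the other strand, and Igf1 overlaps an antisense RNA gene, so that with strand use not given their reads cannot be told apart.

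Igfbp4, an inhibitor of IGF action that the protease PAPP-A cuts, was also lower in undifferentiated W330R cells. It was at 46.5 and 47.7 CPM in WT and at 14.1 and 11 CPM in W330R, 3.74-fold apart by the means (log2 fold change -1.90, SE 0.439, adjusted p = 0.0451). The call is close to the threshold, and it was lost in 16 of the 22 fits that leave out 1 library, with fold changes of -2.10 to -1.74. At day 2 the genotypes overlapped, with 36.3 and 63.3 CPM in WT, 61.4 and 52.4 in W330R and 24.1 and 74.1 in the double mutant. W330R thus rose 4.52-fold from undifferentiated cells (log2 2.17, SE 0.441, adjusted p = 0.0011), whereas WT moved by 0.08 (SE 0.411, adjusted p = 0.886). The difference between these steps was 2.09 (SE 0.598) with an adjusted p of 0.0979.

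At day 4 Igfbp4 stood at 23.4 and 38.9 CPM in WT, 21.8 and 20.3 in W330R and 17.1 and 28.1 in the double mutant. The W330R fall from day 2 to day 4 was called (log2 -1.44, SE 0.42, adjusted p = 0.0386) but not without the 4 libraries with high interferon genes (-1.36, adjusted p = 0.434), and it was lost in 10 of the 22 fits without 1 library (adjusted p up to 0.183). At day 6 it stood at 61.9 and 66.9 CPM in WT, 32.4 and 23.0 in W330R and 40.3 and 34.4 in the double mutant, so that WT lay above both mutants. Neither difference from WT was called at day 6. On the log2 scale W330R minus WT was -1.22 (SE 0.415, adjusted p = 0.0933) and the double mutant minus WT was -0.78 (SE 0.413, adjusted p = 0.403). Averaged over the 4 stages Igfbp4 was lower in W330R (log2 -0.87, SE 0.209, adjusted p = 0.00907), and over days 2 to 6 alone the difference was -0.53 (SE 0.238, adjusted p = 0.11). Without the 4 libraries with high interferon genes the 4-stage average was -0.97 (adjusted p = 0.0538).

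Igfbp3, the main IGF carrier in blood, was expressed at low levels and was the third binding protein gene that was lower in undifferentiated W330R cells. It was at 3.61 and 4.94 CPM in WT and 0.572 and 0.347 CPM in W330R there, from 152 counts in the 2 WT libraries and 10 in the 2 W330R libraries (9.39-fold lower, 95% exact interval for counting error 4.97 to 20.0). The model gave a log2 fold change of -3.18 (SE 0.715, adjusted p = 0.0417), and the call was lost in 14 of the 22 fits without 1 library. WT then fell to 0.755 and 0.295 CPM at day 2 (log2 -3.06, SE 0.686, adjusted p = 0.00197), close to W330R at 0.641 and 0.495 CPM.

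Later on, Igfbp3 was lowest in the double mutant. At day 4 it was at 1.16 and 0.377 CPM in WT, 2.04 and 0.556 in W330R and 0.182 and 0.130 in the double mutant. At day 6 it was at 0.851 and 1.02 CPM in WT, 1.44 and 0.821 in W330R and 0.0930 and 0.108 in the double mutant, which at day 2 held 0.493 and 0.198. Over days 2 to 6 the 6 double mutant libraries lay below the 6 W330R libraries, although the highest of the former (0.493) and the lowest of the latter (0.495 CPM) nearly touched. The averaged difference was -2.41 against W330R (SE 0.445, adjusted p = 0.00221) and -2.02 against WT (SE 0.457, adjusted p = 0.0165), and 21 counts stood against 166 in W330R and 75 in WT. Of the libraries of days 2 to 6, 4 of WT, 5 of W330R and 0 of the double mutant met the filter on low counts. Igfbp3 thus entered the test through genotypes where it is high, and these differences describe its counts. The call against WT was lost without replicate 1 of the double mutant at day 6 (adjusted p = 0.0686). The day 6 difference from W330R of -3.48 was called (SE 0.806, adjusted p = 0.0487), in the fits without 1 library in only 7 of 22. Without the 4 libraries with high interferon genes the averaged difference was -1.75 from W330R (adjusted p = 0.105) and -1.95 from WT (adjusted p = 0.0867). The 3 W330R libraries left then held 0.495, 0.556 and 0.821 CPM, against at most 0.493 CPM in the double mutant. The part of the interferon genes in these differences was not tested.

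Igfbp5, a binding protein of mesenchymal cells and bone with high affinity for the matrix, fell on induction and was lowest in the double mutant. It was at 14.4 and 13.1 CPM in undifferentiated WT cells and 17.8 and 18.9 CPM in undifferentiated W330R cells, where the W330R libraries lay above the WT libraries (log2 fold change 0.42, SE 0.616, adjusted p = 0.911, and 0.024 in a fit of these 4 libraries alone). At day 2 it was at 6.57 and 3.94 CPM in WT, 5.02 and 2.32 in W330R and 2.30 and 2.67 in the double mutant. The fall from undifferentiated cells was called in W330R (log2 -2.33, SE 0.65, adjusted p = 0.00904) and not in WT (-1.39, SE 0.633, adjusted p = 0.0809), although the WT libraries did not overlap either and the fall was called there in a fit of those 4 libraries alone (adjusted p = 0.0224) and without the 4 libraries with high interferon genes (0.00469), and the difference between these falls was not called (-0.93, SE 0.883, adjusted p = 0.712). Without replicate 2 of W330R at day 2 the W330R fall was -1.86 with an adjusted p of 0.0899.

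At day 4 Igfbp5 was at 4.33 and 2.69 CPM in WT, 4.71 and 1.3 in W330R and 0.912 and 0.957 in the double mutant. At day 6 it was at 5.56 and 4.03 CPM in WT, 7.46 and 1.60 in W330R and 1.23 and 0.758 in the double mutant. The 6 double mutant libraries of days 2 to 6 (0.758 to 2.67 CPM) lay below the 6 WT libraries (2.69 to 6.57) by a narrow margin and overlapped the W330R libraries (1.3 to 7.46). The averaged difference of the double mutant was -1.72 from WT (SE 0.39, adjusted p = 0.0167) and -1.44 from W330R (SE 0.387, adjusted p = 0.0201). The call against WT was lost without replicate 1 of the double mutant at day 4 (-1.70, adjusted p = 0.0575). In W330R the libraries split by replicate number, with 5.02, 4.71 and 7.46 CPM in the replicates 1, which had high interferon genes, and 2.32, 1.3 and 1.60 CPM in the replicates 2. Without these 3 libraries and the double mutant library with high interferon genes the difference from W330R was -0.49 (adjusted p = 0.315). It was also no longer called without replicate 1 of W330R at day 2, 4 or 6 or replicate 2 of the double mutant at day 6 (-1.22, -1.06, -0.95 and -1.36).

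Igfbp2, a circulating binding protein that preadipocytes are known to secrete, was barely expressed, with more counts in differentiating WT cells than in the other conditions. In undifferentiated cells it was at 0 and 0.134 CPM in WT and 0.0817 and 0.116 CPM in W330R, at or under 3 counts in each library. In WT it was at 0.680 and 0.394 CPM at day 2, 0.866 and 0.323 at day 4 and 0.794 and 0.778 at day 6. In W330R it stayed at 0.160 and 0.0761, then 0 and 0.185, then 0.136 and 0.0821 CPM. The 6 W330R libraries of days 2 to 6 (0 to 0.185 CPM) lay below the 6 WT libraries (0.323 to 0.866). The rise in WT from undifferentiated cells to day 2, 17 counts against 3, was called (log2 2.57, SE 0.931, adjusted p = 0.0326), but not without replicate 1 of either condition (adjusted p = 0.151 and 0.127) nor by DESeq2 (0.0669).

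Summed over days 2 to 6, Igfbp2 had 19 counts in W330R and 65 in WT, a level 5.37-fold lower in W330R (95% exact interval for counting error 3.18 to 9.48). Igfbp2 passed the filter through WT libraries of these days, so a lower value elsewhere was built in, and the fold changes that follow describe its counts. The averaged difference was -2.41 on the log2 scale over days 2 to 6 (SE 0.478) and -1.76 over the 4 stages (SE 0.485, adjusted p = 0.0185). The latter fell to -0.80 (adjusted p = 0.995) without replicate 2 of undifferentiated WT, which leaves undifferentiated WT at 0. Without replicate 1 of undifferentiated W330R its adjusted p was 0.0508. At day 6 alone the difference was -2.72 (SE 0.775, adjusted p = 0.0474), a call lost in 18 of the 22 fits without 1 library. The double mutant held 0.0821 and 0.0495 CPM at day 2, 0.365 and 0.348 at day 4 and 0.256 and 0.325 at day 6, with means between those of the other genotypes at the later days, although at day 4 its libraries overlapped those of WT. It was below WT (log2 -1.71, SE 0.489, adjusted p = 0.0429, lost in 18 of the 22 fits without 1 library) and its difference from W330R was not called (0.70, SE 0.587, adjusted p = 0.472), with 30 counts against 19 (2.08-fold, counting interval 1.13 to 3.91).

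Igfbp6, which prefers IGF2 over IGF1, was at 0.898 CPM or below in every library, with at most 18 counts. It was higher before induction (0.616 and 0.801 CPM in WT and 0.898 and 0.578 in W330R) than at day 2 (0.151 and 0 in WT and 0.160 and 0.114 in W330R). In WT this fall rested on 2 counts against 25, 12.4-fold lower with a counting interval of 3.09 to 108 (log2 -3.39, SE 1.16, adjusted p = 0.0247). The call was lost without replicate 2 of either condition (adjusted p = 0.102 and 0.192), and since only undifferentiated libraries carried Igfbp6 through the filter, it describes those counts and no more. It was not called in W330R (-2.42, SE 1.01, adjusted p = 0.0617), and no genotype difference in Igfbp6 was called.

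**Figure D4:**
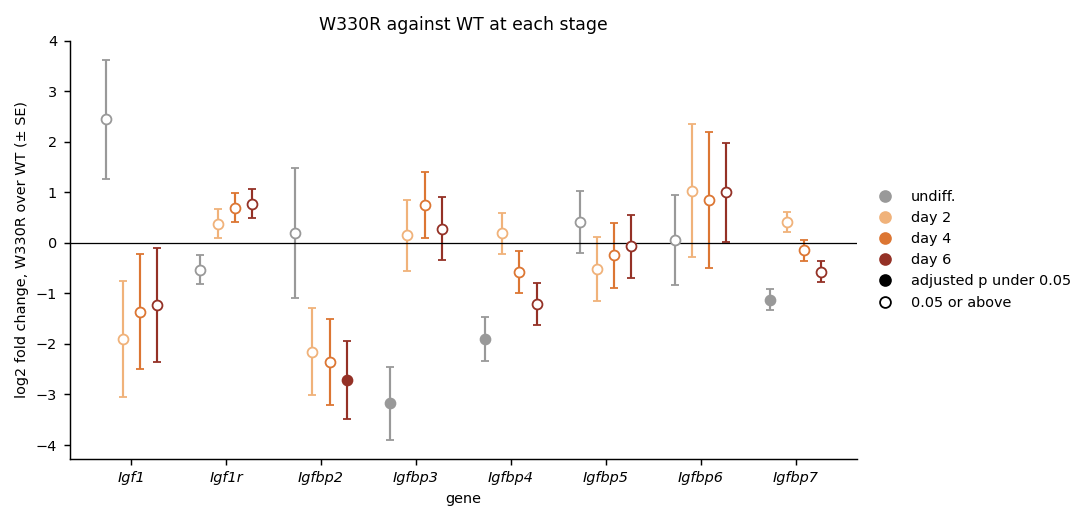
Log2 fold change of W330R over WT (± SE from the model over all 22 libraries) for the 8 genes in undifferentiated cells and at days 2, 4 and 6, with filled circles where the adjusted p was under 0.05. Igfbp3, Igfbp4 and Igfbp7 are filled in undifferentiated cells at -3.18, -1.90 and -1.12 and Igfbp2 at day 6 at -2.72, and Igf1 has the widest error bars together with Igfbp2 and Igfbp6.

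Counted over the 8 genes, W330R against WT averaged over the 4 stages gave 3 lower (Igfbp2, Igfbp4 and Igfbp7) and 0 higher, where 22.9% of all genes tested were called and 11.8% were called lower. Igfbp7 was at -0.36 in that average (SE 0.102, adjusted p = 0.0221), a call lost without any 1 of 5 libraries (adjusted p up to 0.0611), and at -0.10 over days 2 to 6 alone (adjusted p = 0.553). The median log2 fold change of the 8 was -0.43, against 0.01 for all genes. In undifferentiated cells 3 of 8 were called, each lower, with a background of 1.75% called and 0.957% called lower. The direction was not the same for all 8, since a fit of these 4 libraries alone also called Igf1 and Igfbp5 higher and Igf1r lower. In that fit 35.3% of all genes were called. At days 2, 4 and 6 the counts were 0, 0 and 1, with backgrounds of 3.06%, 6.14% and 7.54%, and at an unadjusted p under 0.05 they were 1, 2 and 4, where 18.2%, 23.1% and 22.4% of all genes had one. DESeq2 called 0, 0 and 1 there, with 8.38%, 12.7% and 12.6% of all genes. Over days 2 to 6 together Igf1r was called higher, where 29% of genes were called, and its libraries did not overlap, where this held for 5.25% of all genes. Igfbp2 was called lower and did not overlap either, but the filter kept it through its WT libraries, which also holds for its place in the counts of W330R and of the double mutant against WT.

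The double mutant against W330R over days 2 to 6 gave 3 lower (Igf1r, Igfbp3 and Igfbp5) and 0 higher of the 8, with a background of 17.2% called and 9.36% called lower, and against WT again 3 lower (Igfbp2, Igfbp3 and Igfbp5) and 0 higher, with a background of 9.57% called and 5.12% called lower. These comparisons share the double mutant libraries. Igfbp3 met the filter in 0 of them, so its place in these counts, and among the genes without overlap that follow, is a description. Libraries did not overlap for 2 of the 8 against W330R and for 1 against WT, where this held for 3.55% and 1.47% of all genes. At single days 0, 0 and 1 of the 8 were called against W330R, with backgrounds of 2.67%, 1.91% and 1.5%, and 0, 0 and 0 against WT, with 0%, 0% and 0.875%. At an unadjusted p under 0.05 these were 0, 2 and 4 (15.4%, 13.8% and 15% of all genes) and 1, 2 and 2 (8.95%, 11.3% and 14.9%), and DESeq2 called 0, 1 and 2 (6.77%, 4.99% and 4.8%) and 0, 0 and 2 (0.791%, 1.11% and 4.4%). The change in the W330R effect from undifferentiated cells to day 2 was called for 1 of the 8 (Igfbp7), with a background of 1.87%. Between days 2 and 6 the change in the W330R effect was called for 0 of the 8 (2 at an unadjusted p under 0.05, held by 6.71% of all genes, 0 by DESeq2, background 0.0895%) and that in the double mutant effect against W330R for 0 (1, with 4.1% of all genes, and 0, background 0%).

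Along differentiation, day 2 against undifferentiated cells gave 5 of 8 in WT (4 lower and 1 higher) and 3 of 8 in W330R (2 lower and 1 higher), with backgrounds of 50.9% (24.4% lower and 26.5% higher) and 48.2% (23% lower and 25.1% higher). In WT the 1 higher was Igfbp2, and Igfbp6 was among the 4 lower. Both passed the filter through the stage where they are high, so their places in this count are a description. From day 2 to day 4, 1, 2 and 1 of the 8 were called in WT, W330R and the double mutant, with backgrounds of 10.8%, 12.4% and 10.7%. From day 2 to day 6 it was 1 in each, Igfbp7, with backgrounds of 26.6%, 25% and 23.2%.

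Of 20 other genes of the IGF axis (the ligand Igf2, other receptors, carriers, adaptors, proteases and their inhibitors), 16 could be tested. W330R against WT over the 4 stages gave 2 lower and 0 higher of the 16. The share of lower calls was near the 11.8% called lower among all genes, of which 22.9% were called in either direction. Insr, the insulin receptor gene, had a log2 fold change of -0.58 (SE 0.0669, adjusted p = 0.000114), and Adam12, a metalloprotease that cuts IGF-binding proteins, had -1.42 (SE 0.155, adjusted p = 7.51e-05). The 6 differentiating W330R libraries held 66.4 to 97.6 CPM of Insr and the 6 WT libraries 103 to 156, whereas the undifferentiated libraries were alike at 73.2 to 80.7 CPM. Insr and Igf1r, which encode related receptors, thus stood on opposite sides of WT in W330R after induction.

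In the double mutant, Insr and Adam12 lay between the other genotypes. Against W330R both were called higher (0.27, SE 0.077, adjusted p = 0.0291, and 0.72, SE 0.168, adjusted p = 0.01), which made 2 of 16 higher and 0 lower (17.2% of all genes called), and against WT both were called lower (-0.50, SE 0.0771, adjusted p = 0.00275, and -0.78, SE 0.168, adjusted p = 0.0135). Against WT 4 of the 16 were called, 1 higher and 3 lower (9.57% of all genes called). Those outside the naming rule, chosen after their values were seen, were the adaptor gene Grb10 (0.82, SE 0.238, adjusted p = 0.0444) and Stc1 (-3.58, SE 0.574, adjusted p = 0.00317), which encodes an inhibitor of the IGFBP protease PAPP-A and was at 0 to 0.182 CPM in the double mutant and 0.148 to 2.89 CPM in WT. Stc1 held 0 to 3 counts in each double mutant library, at or under the floor. All of these lay below the 0.517 CPM that the filter asked for, so the difference in Stc1 describes its counts. In undifferentiated W330R cells 2 of 16 were lower (1.75% of all genes called), Pappa, the gene of that protease (-2.34, SE 0.49, adjusted p = 0.0306), and the adaptor gene Grb14 (-2.39, SE 0.56, adjusted p = 0.0466), also named after their values were seen. Pappa was at 14.5 and 14 CPM in WT and 2.94 and 2.66 CPM in W330R there, so that the gene of the protease and that of its substrate IGFBP4 were both lower.

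The genes whose 11 condition means on the log2 scale came nearest to those of a member were sought among 11150 genes, by the root mean square difference of centred values. Cd47 followed Igf1r at 0.10, against a spread of 0.67 of Igf1r around its own mean, with BC022687 next at 0.15. Sod3 and Rdm1 came nearest to Igfbp7 (0.22 and 0.26, spread 0.64). For Igf1 the nearest genes were distant (Ets2 at 0.54 and Emc2 at 0.58, spread 0.88). Igfbp4 had Txnrd3 and Pim1 (0.43 each), Igfbp5 had Chst1 and Bdnf (0.46 and 0.59), and Igfbp3 had Dpysl3 and Ncam1 (0.55 and 0.60). The 2 genes at the lowest counts, Igfbp2 and Igfbp6, had Fasn and Reep5 (0.45 and 0.46) and Notch3 and Man1c1 (both 0.31). With a prior count of 0.5 in place of 2, Fasn, Reep5, Notch3 and BC022687 were no longer among the nearest 2, and for Igfbp2 Scd1 and Hist1h4d took their place (0.71 and 0.74), so that these neighbours depend on the prior count. These points share libraries, and likeness over 11 means is a description without a test.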

How the data were processed

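RNA of 22 libraries was sequenced with a NEBNext Ultra II kit from TRIzol total RNA. The authors deposited 1 table of raw read counts per gene symbol. The submitters' processing notes name kallisto, DESeq2 1.40 and GRCm39. The annotation and the use of strand are not given in the sources used here. Groups were taken from the sample labels. The double mutant is R181E in the labels and R181A in the table's column names, and columns were matched by genotype, day and replicate.

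Counts were tested with edgeR 4.0.16 in R 4.3.3 (quasi-likelihood F-test, TMM, filterByExpr with a minimum count of 10 and a minimum total of 15) in 1 model of 22 libraries with a mean per condition. Adjustment was by Benjamini-Hochberg over 14520 genes, with calls at an adjusted p under 0.05. SE is the log2 fold change divided by the root of F. Intervals are exact at 95% and, like the floor of 3 counts, cover counting error only. The code was tested on simulated data.

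The 8 genes, the other 20 IGF axis genes and the marker lists were chosen with earlier results of these data known. Named were the 8 genes, other IGF axis genes called in W330R against WT or in the double mutant against W330R (both averaged over stages), the 2 genes nearest in pattern to each member (mean log2 CPM at least 1, prior count 2), markers and Dnmt3a. Alternatives were RLE scaling, DESeq2 1.42.0, no filter, a fit of only the conditions compared, a replicate block and leaving out each library. After the data were seen, averages over days 2 to 6 only, a fit without undifferentiated libraries and one without the 4 libraries with high interferon genes were added. Exon lengths are from GENCODE vM21 (GRCm38) and start regions from RefSeq (GRCm38.p6).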

Additional observations from a re-analysis of the deposited data

Results flagged for a closer look

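In Igfbp7 the W330R effect differed between undifferentiated cells and day 2 by a test of the difference itself. W330R minus WT was -1.12 on the log2 scale in undifferentiated cells (70.0 and 76.9 against 165 and 155 CPM) and 0.41 at day 2 (47.5 and 68.3 against 47.8 and 39.4 CPM). The difference was 1.53 (SE 0.292, adjusted p = 0.0173, edgeR quasi-likelihood test). The naming of the undifferentiated libraries differs from that of later ones in both genotypes, and whether a batch had a part in the difference was not tested. With 2 libraries per condition, no condition could be searched for an outlying sample.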

How the results depend on the processing

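Of 1774 values of 62 log2 fold changes under other settings, 1760 kept their direction and 14 changed it, in 10 results, 9 of them in Igf1. In Igf1, W330R minus WT over the 4 stages became 0.20 without WT day 2 replicate 1 (-0.78 to 0.20 over the fits without 1 library), at day 2 0.95 (-2.97 to 0.95) and, without WT day 4 replicate 1, at day 4 0.56 (-2.16 to 0.56). The double mutant minus W330R became -0.019 over days 2 to 6 (-0.019 to 1.36) and -1.24 at day 2 (-1.24 to 2.89) without its day 2 replicate 1, and -0.093 at day 4 (-0.093 to 0.92) without its day 4 replicate 1. The double mutant minus WT over days 2 to 6 became 0.45 without WT day 2 replicate 1 and 0.15 without WT day 4 replicate 1 (-1.51 to 0.45), at day 2 2.76 and, without the double mutant's day 2 replicate 2, 0.84 (-3.14 to 2.76), and at day 4 1.06 (-1.61 to 1.06). In Igfbp5, W330R minus WT over the 4 stages became 0.011, 0.074 and 0.080 without replicate 2 of W330R at day 2, 4 and 6 (-0.47 to 0.080). The cause was not tested.

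Counts of the 8 genes called moved as follows. Without the 4 libraries with high interferon genes they were 1, 0 and 1 for the averages of W330R against WT, the double mutant against W330R and the double mutant against WT (12.6%, 6.1% and 2.04% of all genes called). W330R against WT then gave 1 in undifferentiated cells (0.968%) and 0 at day 6 (1.15%), and the double mutant against W330R gave 0 at day 6 (0.0134%). Day 4 against day 2 gave 0 and 2 in W330R and the double mutant (0.323% and 6.95%), and day 6 against day 2 gave 0 in W330R (2.86%). Fits of only the conditions compared, which have fewer libraries, gave 6 in undifferentiated cells (35.3% of all genes called) and 1 for the double mutant average against WT (1.18%). In such fits 0 were called at day 6 for W330R against WT and for the double mutant against W330R (0.422% and 0%). Day 4 against day 2 gave 0, 1 and 0 there in WT, W330R and the double mutant (0.0549%, 10.6% and 0%). Day 6 against day 2 gave 2 and 0 in W330R and the double mutant (28.4% and 0.619%), and the change in the W330R effect at day 2 gave 2 (2.55%). No filter gave 1 for the double mutant against W330R at day 4 (1.69%), 2 for day 6 against day 2 in W330R (13.9%) and 2 for that change (1.51%). DESeq2 gave 1 and 2 for the double mutant against W330R at days 4 and 6 (4.99% and 4.8% of all genes), 2 against WT at day 6 (4.4%) and 2 for that change (4.77%). The fit without undifferentiated libraries gave 0 and 0 at day 6 for W330R against WT and the double mutant against W330R (4.46% and 0.277%), and 1 for day 4 against day 2 in W330R (8.2%). Per kilobase of the longest transcript Igf1r was at 7.55 CPM, and Igfbp2 ranked above Igfbp6.

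Without 1 library the 3 averages gave 1 to 4, 2 to 3 and 1 to 3 calls, W330R against WT 0 to 3 in undifferentiated cells, 0 at days 2 and 4 and 0 to 1 at day 6, and the double mutant 0, 0 to 1 and 0 to 1 against W330R and 0 against WT. Day 2 against undifferentiated cells gave 4 to 6 in WT and 1 to 5 in W330R, day 4 against day 2 gave 1, 0 to 2 and 0 to 2, day 6 against day 2 gave 1, 1 to 2 and 1, and the change in the W330R effect at day 2 gave 0 to 2.

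Replicate numbers are not stated to mark a shared batch, and deviations of same-numbered libraries correlated over 0.1 in 29 of 36 pairs of conditions of days 2 to 6 (r from -0.0191 to 0.662) and in none that involves undifferentiated libraries (29 of 55 in all, from -0.0546). Same-numbered libraries of days 2 to 6 thus tended to deviate together, but not in every pair, and the reported model has no block. A replicate block gave 4, 3 and 3 calls in the averages (28.2%, 21.9% and 16.1% of all genes), 1 and 2 for W330R against WT and for the double mutant against W330R (3.73% and 3.43% for the latter) at days 4 and 6, 2 for the double mutant against WT at day 6 (2.66%) and 2 for the change in the W330R effect at day 2 (3.51%). With it Igf1r was called for W330R against WT at day 4 (0.72, adjusted p = 0.0278) and day 6 (0.81, 0.0148) and for the double mutant against W330R at day 6 (-0.78, 0.0408). At days 4 and 6 of W330R against WT 12.7% and 12.1% of all genes were called with the block. Over all genes the block moved the calls in the average of the double mutant against WT from 1390 to 2338, DESeq2 to 2280 and the fit of those conditions alone to 163. Depth limits Igfbp2, Igfbp3 and Igfbp6, where 3 counts are 0.0583 to 0.347 CPM.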
